A study of Mus musculus with 2 samples.

Results

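The semaphorins, plexins, ephrins, Eph receptors, netrins, Unc5 receptors, Slits and Robo receptors were examined in mouse preglomerular arterioles, the small kidney arteries that lead to the glomeruli and carry the renin cells. Genes were chosen by the family name in their symbol. This gave 67 genes among the 22314 named genes measured, of which 45 had a level above the floor described below. The rule also took in Unc50 and Unc5cl, which share letters with the Unc5 receptors but are not netrin receptors. Unc50 was above the floor and Unc5cl was not.

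The study compared mice that lack RBP-J, the DNA-binding factor of the Notch pathway, in renin cells and their descendants with mice that keep it. Both groups carried floxed RBP-J on both alleles and the R26R ECFP reporter, on a mixed background of 129Sv and C57Bl6, and were 3 months old. The group labelled wild type was Ren1d+/+, so it carried the floxed alleles without cre. The RBP-J cKO group was Ren1d+/cre, with cre in place at 1 Ren1d allele, which limits deletion to cells that have used that locus. Vessels were taken from minced cortex with a magnet after iron oxide perfusion and collagenase digestion, and total RNA was labelled for an Affymetrix whole-transcript array. The wild type array held a pool of 3 animals, 2 males and 1 female, and the RBP-J cKO array a pool of 4 males. With 1 array for each group there are no replicates, so no test of the genotype was possible and each difference describes these 2 pools.

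Guidance molecules were first known from growing axons, which they attract or repel, and the same ligand and receptor pairs shape blood vessels and the kidney. Class 3 semaphorins are secreted and act through plexins, most of them together with neuropilins, while the other mouse semaphorins are held at the cell membrane. Ephrins are membrane-bound ligands of the Eph receptor tyrosine kinases, and ephrin-B2 on arteries facing EphB4 on veins is the best known vascular pair. Netrins act through Unc5 receptors and Dcc, and Slits act through Robo receptors.

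Levels are the deposited RMA values on the log2 scale, and differences subtract the wild type level from the RBP-J cKO level. Levels of different probe sets are not comparable with each other. The floor was 7.56, the median of all named probe set values, and 11587 genes reached it on at least 1 array. The RMA medians over all probe sets were 7.25 and 7.21, and the arrays correlated at r = 0.987 across probe sets. Rbpj, the targeted gene, had a level of 9.0 in the wild type pool and 9.02 in the cKO pool. The position of its probes against the floxed exons was not analysed here, so these levels do not check the labels. Ren1, encoding renin, read 10.77 and 10.19. Of the smooth muscle markers of the vessel wall 6 of 7 were above the floor, and all 12 endothelial markers were. All 9 podocyte, 7 proximal tubule and 7 collecting duct markers were above it too, so this does not show how pure the vessels were. Xist, the RNA of the inactive X chromosome, read 11.39 in wild type and 5.41 in cKO. The labelled sexes of the pools differ, and the part of sex in the differences below cannot be told apart from that of genotype.

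Guidance genes were more often lower than higher in the RBP-J cKO pool. Of the 45 above the floor, 44 on both arrays and Sema6c in the wild type pool alone, 32 were lower and 13 higher, where 46.1% of all genes above the floor were lower. Their median difference was -0.25, against 0.02 over all genes above the floor. Without Sema6c, which could only count as lower, 31 of the 44 were lower and 13 higher. Over all 67 members without a floor 43 were lower, against 51.5% of all 22314 named genes, and the median was -0.13, against -0.01. The differences were small for single genes. At least 1.5-fold lower were 3 of the 45, where 1.6% of all genes were, and 1 was at least 1.5-fold higher, where 4.1% were. None of the 45 was 2-fold apart, where 1.05% of all genes were. At a step of 0.25 on the log2 scale, chosen after the values were seen, 23 of the 45 were lower, against 11.9% of all genes. At the same step 8 were higher, against 19.9%. The step is the size of the members' own median, so the count of 23 restates that median and adds no further support. Among receptors 16 of 19 were lower and the median was -0.31. Among ligands 16 of 25 were lower and the median was -0.19. The same 46.1% applies to the counts of lower genes given below for each subfamily, and most of these rest on few genes. In bulk RNA, fewer cells of a type and less RNA per cell cannot be told apart.

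**Figure D1:**
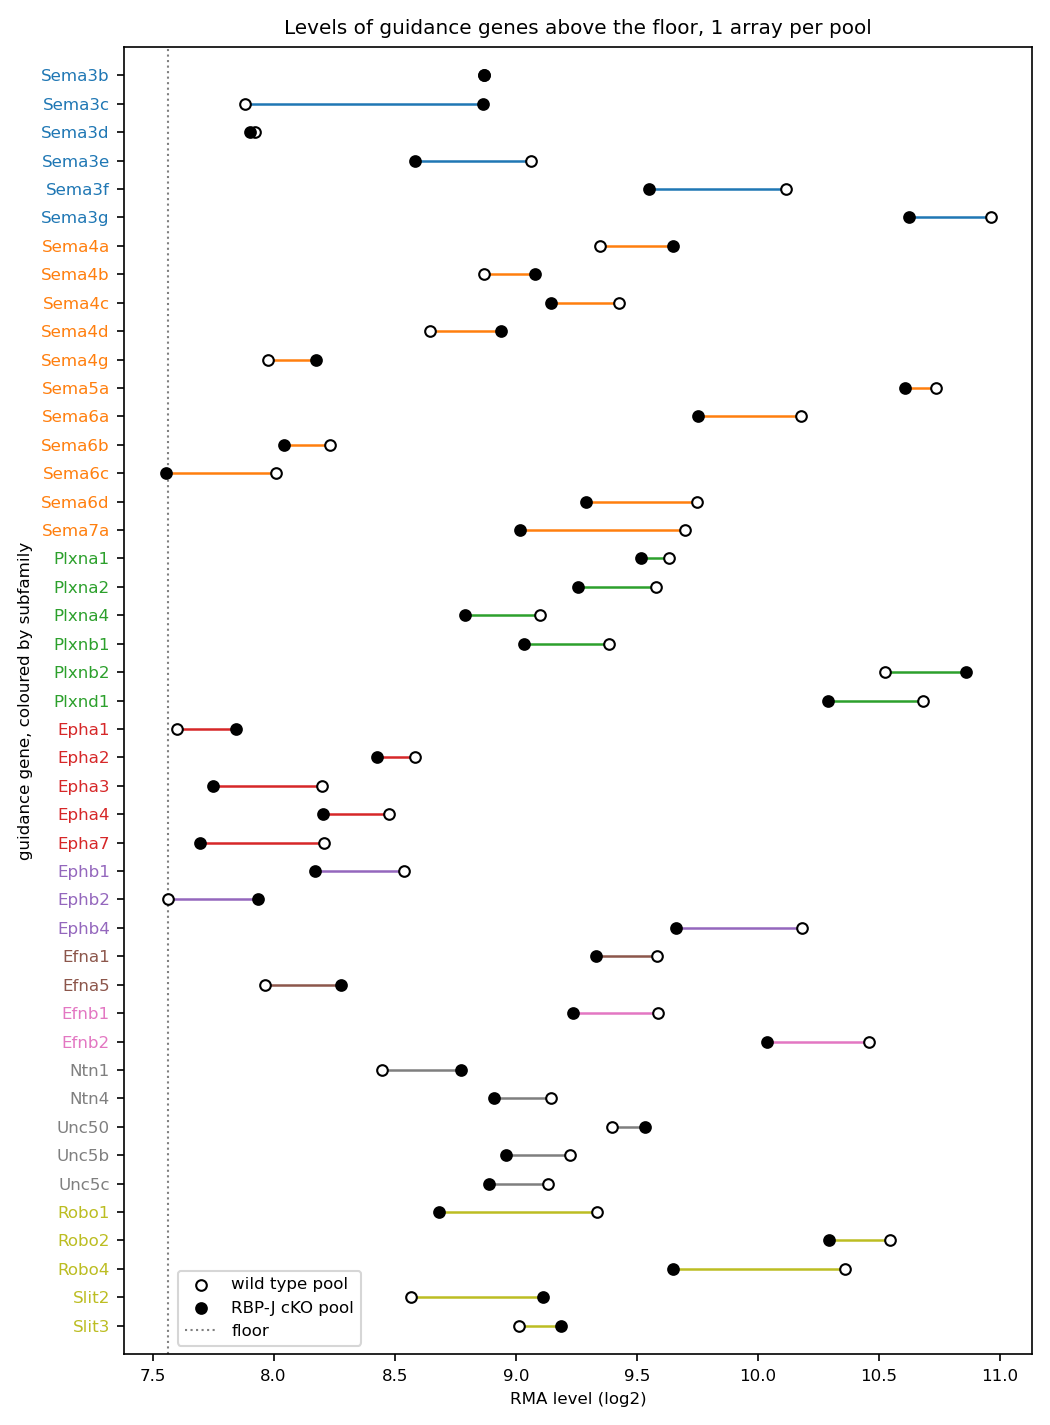
RMA level (log2, horizontal axis) of each of the 45 guidance genes above the floor, with an open circle for the wild type pool and a filled circle for the RBP-J cKO pool, 1 array each, and gene names coloured by subfamily. The filled circle lies to the left for 32 genes, and the widest gap to the right is that of Sema3c, from 7.88 to 8.87.

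The 4 genes at least 1.5-fold apart were Robo4, Sema7a and Robo1, which were lower in the cKO pool, and Sema3c, which was higher. Robo4, the Robo receptor of endothelium, read 10.36 in wild type and 9.65 in cKO, a difference of -0.71 or 1.63-fold. Its place from the lowest among the 11587 genes was 82. The authors' deposited table lists intensities of 1549 and 973 for it and a fold of -1.59, where the minus sign means lower in cKO, between bounds of -1.55 and -1.63. Sema7a, a semaphorin anchored by a lipid that binds plexin C1 and beta 1 integrin, read 9.70 and 9.02, a difference of -0.68 or 1.6-fold. In the authors' deposited table its fold was -1.49 with bounds of -1.43 and -1.55, short of 1.5-fold. Robo1, a receptor of Slits, read 9.34 and 8.68, a difference of -0.65 or 1.57-fold, with a fold of -1.55 and bounds of -1.5 and -1.61 in the authors' deposited table. Sema3c, a secreted semaphorin known for its part in patterning the cardiac outflow tract, stood at the other end. It read 7.88 in wild type and 8.87 in cKO, a difference of 0.98 or 1.98-fold, and its place from the highest was 104. Its wild type level lay just above the floor. The authors' deposited table gave it intensities of 369 and 669 and a fold of 1.81 with bounds of 1.7 and 1.93. The promoters of these 4 genes are shown because no other members above the floor were as far apart. Each line holds 250 bases before and 50 after the annotated start, from RefSeq on GRCm38.p6, read 5′ to 3′ on the gene's strand. The letters TGGGAA, the core of the motif bound by RBP-J, would be in capitals on either strand, and these windows hold none.
Robo4 promoter, chr9:37401722-37402021, + strand: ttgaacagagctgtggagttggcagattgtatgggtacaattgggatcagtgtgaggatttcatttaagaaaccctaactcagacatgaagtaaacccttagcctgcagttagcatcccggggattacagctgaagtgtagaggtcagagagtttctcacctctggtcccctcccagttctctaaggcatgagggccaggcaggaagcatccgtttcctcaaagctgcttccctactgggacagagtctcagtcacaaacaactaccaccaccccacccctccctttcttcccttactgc
Sema7a promoter, chr9:57939862-57940161, + strand: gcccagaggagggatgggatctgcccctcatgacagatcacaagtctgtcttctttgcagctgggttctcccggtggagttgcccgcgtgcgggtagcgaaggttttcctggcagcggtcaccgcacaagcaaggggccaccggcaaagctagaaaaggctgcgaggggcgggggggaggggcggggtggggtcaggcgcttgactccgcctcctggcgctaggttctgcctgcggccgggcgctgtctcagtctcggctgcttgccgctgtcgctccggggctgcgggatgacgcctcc
Robo1 promoter, chr16:72662899-72663198, + strand: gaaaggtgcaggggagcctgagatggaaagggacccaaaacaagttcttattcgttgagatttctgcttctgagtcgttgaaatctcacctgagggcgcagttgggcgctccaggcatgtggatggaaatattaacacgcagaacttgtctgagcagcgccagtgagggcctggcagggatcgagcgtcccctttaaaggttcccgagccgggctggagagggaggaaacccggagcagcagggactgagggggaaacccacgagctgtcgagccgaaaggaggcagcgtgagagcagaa
Sema3c promoter, chr5:17574566-17574865, + strand: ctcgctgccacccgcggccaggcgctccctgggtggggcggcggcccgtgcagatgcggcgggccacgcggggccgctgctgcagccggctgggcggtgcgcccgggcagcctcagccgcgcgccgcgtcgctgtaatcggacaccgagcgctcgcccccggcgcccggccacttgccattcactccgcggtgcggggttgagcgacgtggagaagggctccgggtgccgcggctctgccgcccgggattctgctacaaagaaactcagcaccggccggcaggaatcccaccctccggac
The windows also differ in composition, from 50.3% G and C with 2 CG pairs for Robo4 to 75.7% with 42 for Sema3c.

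**Figure D2:**
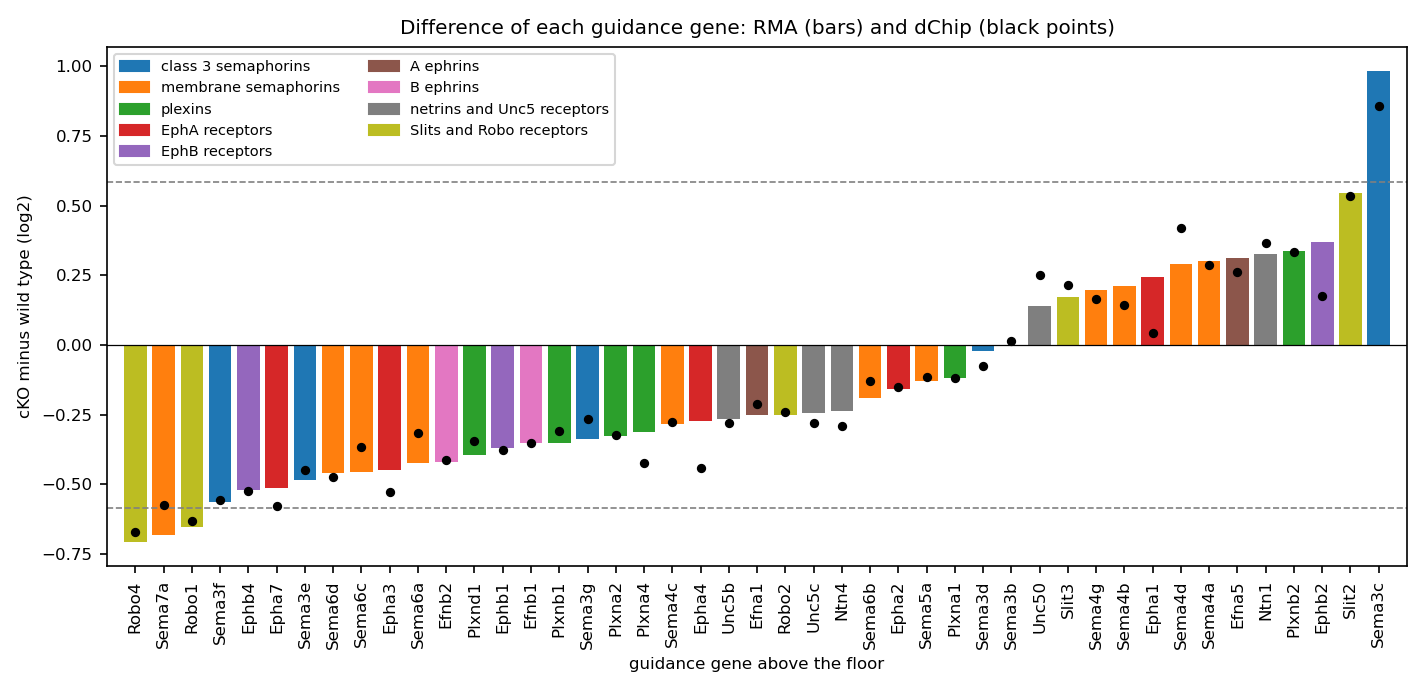
Difference of each of the 45 guidance genes above the floor (vertical axis, log2, RBP-J cKO minus wild type), ordered by size, with RMA as bars coloured by subfamily and dChip as black points. Dashed lines mark 1.5-fold; by RMA 3 genes lie below the lower line and 1 above the upper, and with dChip Sema7a falls inside at -0.57.

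Among the ligands, the class 3 semaphorins split. Of 7 measured, 6 were above the floor and 5 of these were lower in cKO, with a median of -0.18. Sema3f, which signals through neuropilin 2, read 10.11 and 9.55, a difference of -0.56. Sema3e, which binds plexin D1 without a neuropilin and keeps vessels out of somites in the mouse embryo, read 9.06 and 8.58, a difference of -0.48. Sema3g, made by arterial endothelium and podocytes, read 10.96 and 10.63, a difference of -0.34. Folds in the authors' deposited table were -1.47, -1.36 and -1.2 in that order. All 3 were thus lower by RMA and by dChip, while Sema3c was higher by both. Sema3b read 8.87 on both arrays, and Sema3d read 7.92 and 7.90. Without Sema3c the median of the other 5 was -0.34. Sema3a, which repels axons and endothelial cells, was below the floor at 5.96 and 5.99.

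The membrane semaphorins differed by class. Class 6 semaphorins, transmembrane ligands of A plexins, were lower in 4 of 4 cases, and their median was -0.44. Sema6d read 9.75 and 9.29, a difference of -0.46, and Sema6c read 8.01 and 7.55, also -0.46. The cKO level of Sema6c was just under the floor, so it could only count as lower. Sema6a, at 10.18 and 9.75, differed by -0.42, and Sema6b, at 8.23 and 8.04, by -0.19. Class 4 semaphorins, many of them ligands of B plexins that are also active on immune cells, were higher in 4 of 5 cases above the floor, and their median was 0.21. Sema4a, which acts on T cells, read 9.35 and 9.65, a difference of 0.30. Sema4d, the ligand of plexin B1 that is also known as CD100, read 8.65 and 8.94, a difference of 0.29 that was 0.42 with dChip. Sema4b differed by 0.21 and Sema4g by 0.20. Sema4c, a ligand of plexin B2, went the other way, at 9.43 and 9.14, a difference of -0.28. The ranges of the 2 classes, -0.46 to -0.19 and -0.28 to 0.30, overlapped through Sema4c. Sema5a, whose extracellular part holds thrombospondin repeats, read 10.74 and 10.61, a difference of -0.13. Macrophage markers, described below, were higher in the same pool, and their part in the class 4 values was not tested.

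The plexins are the receptors of the semaphorins. Of 9 plexins 6 were above the floor and 5 of them were lower, with a median of -0.32. Plxnd1, the endothelial plexin that binds Sema3e, read 10.68 and 10.29, a difference of -0.39. The A plexins, which pair with neuropilins for class 3 ligands and bind class 6 ligands directly, were lower in 3 of 3 cases above the floor. Plxna2 read 9.58 and 9.26, Plxna4 read 9.10 and 8.79, and Plxna1 was closer to equal at 9.63 and 9.52. Among B plexins, Plxnb1, the receptor of Sema4d, read 9.39 and 9.04, a difference of -0.35. Plxnb2, expressed in kidney epithelium, was the exception among the plexins above the floor, at 10.52 and 10.86, a difference of 0.34. In the authors' deposited table the fold was -1.24 for Plxnb1, with bounds of -1.21 and -1.27, and 1.26 for Plxnb2, with bounds of 1.23 and 1.29. Plxnc1, the receptor of Sema7a, was below the floor at 6.90 and 7.34.

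**Figure D3:**
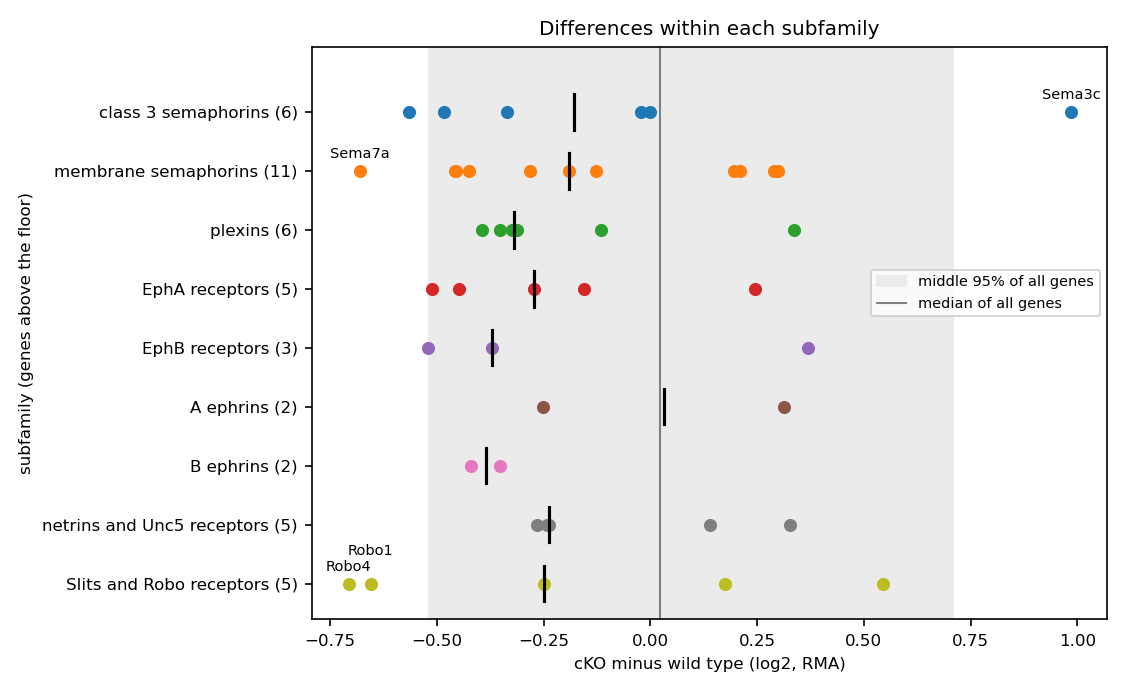
Difference of each guidance gene above the floor (log2 RMA, RBP-J cKO minus wild type, horizontal axis) by subfamily, with a black bar at each median and the number of genes in brackets. Grey shows the middle 95% of all genes above the floor, -0.52 to 0.71, and the 4 genes at least 1.5-fold apart, which are named, lie outside it, as do Sema3f at -0.56 and Ephb4 at -0.52.

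The pair of ephrin-B2 and EphB4 was lower on both sides. Efnb2, the arterial ligand and a known Notch target in endothelium, read 10.46 in wild type and 10.04 in cKO, a difference of -0.42, with intensities of 2382 and 1788 in the authors' deposited table. Ephb4, its receptor, read 10.18 and 9.66, a difference of -0.52, with a fold of -1.44 and bounds of -1.4 and -1.48 there. Efnb1, the other B ephrin above the floor, read 9.59 and 9.24, a difference of -0.35. Ephb1 read 8.54 and 8.17, a difference of -0.37, and its dimmer second probe set read 7.33 and 6.68. Ephb2 was the EphB receptor above the floor that was higher, at 7.57 and 7.93. Its difference of 0.37 was 0.17 with dChip, and its wild type level was at the floor.

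Of the 5 EphA receptors above the floor 4 were lower, and the median was -0.27. Epha7 read 8.21 and 7.70, a difference of -0.51, and Epha3, found on mesenchymal cells, read 8.20 and 7.75, a difference of -0.45. Epha4, which binds ephrins of both classes, read 8.48 and 8.20, a difference of -0.27 that was -0.44 with dChip. Epha2, the receptor of ephrin-A1, read 8.58 and 8.43. Epha1 was higher by RMA, at 7.60 and 7.84, but its fold in the authors' deposited table was 1.03 with bounds of 0.98 and 1.08. The A ephrins above the floor went opposite ways. Efna1, found on endothelium, read 9.58 and 9.33, a difference of -0.25, and Efna5 read 7.96 and 8.28, a difference of 0.31. Their median of 0.03 became -0.25 where the stricter floor left Efna1 alone.

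The Robo receptors above the floor were lower, while the Slits above the floor were higher. With Robo4 and Robo1 already given, Robo2, which podocytes carry and which restrains budding of the ureter, read 10.54 and 10.29, a difference of -0.25. Slit2 read 8.57 and 9.11, a difference of 0.54 or 1.46-fold, with a fold of 1.45 and bounds of 1.4 and 1.5 in the authors' deposited table. Slit3 read 9.01 and 9.19, a difference of 0.17. Thus 3 of 3 Robo receptors above the floor were lower by RMA and by dChip, and 2 of 2 Slits were higher by both. Both processings used the same 2 arrays, and 46.1% of all genes above the floor were lower by RMA. Counts of 2 or 3 genes are too few to set against that share. For netrin 1 the order was the same as for Slits and Robo receptors, on a smaller scale. Ntn1 read 8.45 and 8.77, a difference of 0.33, while the receptor gene Unc5b, known from endothelial tip cells, read 9.22 and 8.96, a difference of -0.27. Unc5c read 9.13 and 8.89, a difference of -0.24, and Ntn4, a netrin of basement membranes, read 9.15 and 8.91, a difference of -0.24. Unc50 read 9.40 and 9.54. Without the floor the median of the netrins and Unc5 group turned from -0.24 to 0.0249, since the 4 members below the floor differed by -0.08 to 0.11.

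The 22 members below the floor were split evenly, 11 lower and 11 higher by RMA, with a median of -0.0015, while by dChip 14 were lower and 8 higher. Of these, 1 was at least 1.5-fold apart. Epha6 read 7.16 in wild type and 6.25 in cKO, a difference of -0.91, with a fold of -1.85 in the authors' deposited table, and both levels lie under the floor, so the size is uncertain. Plxnc1 at 0.43, Robo3 at -0.45 and Ephb3 at 0.31 followed, and the other 18 lay between -0.20 and 0.11. These were Efna2, Efna3, Efna4, Efnb3, Epha5, Epha8, Epha10, Ephb6, Plxna3, Plxnb3, Sema3a, Sema4f, Sema5b, Slit1, Ntn2l, Unc5a, Unc5cl and Unc5d.

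The cytoplasmic effectors that act beside these families were closer to equal than the co-receptors. A list of 52 co-receptors and cytoplasmic effectors had 46 above the floor, with 25 lower, 21 higher and a median of -0.07. The co-receptors were lower in 6 of 8 cases, and their median was -0.18, near that of the guidance ligands. Flrt3, a membrane protein that binds Unc5 receptors and Robo1, read 8.36 and 7.73, a difference of -0.63, and was the member of this list at least 1.5-fold apart. The neuropilin genes Nrp2, at 9.79 and 9.24, and Nrp1, at 11.86 and 11.50, differed by -0.54 and -0.36. The cytoplasmic effectors divided evenly, 19 lower and 19 higher, with a median of -0.02. Srgap3 passed the floor in the cKO pool alone, at a wild type level of 7.53, so it could only count as higher. Of the effectors above the floor on both arrays 19 were lower and 18 higher, with a median of -0.04. Dpysl2, which encodes the collapsin response mediator CRMP2, differed by -0.37, its relative Dpysl3 by 0.38, and Pdzrn3, encoding a ubiquitin ligase with PDZ domains, by 0.46.

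Endothelial, podocyte, mesangial and pericyte markers were also lower in the cKO pool. The endothelial guidance list of Efnb2, Ephb4, Plxnd1, Robo4, Unc5b, Sema3g, Sema3f and Efna1 was lower in 8 of 8 cases. Its median was -0.41 and its range was -0.71 to -0.25. Of all genes above the floor 46.1% were lower. These 8 genes were picked from the members with earlier results of these data known, so the count is no independent support. General endothelial markers were lower in 12 of 12 cases. Their median was -0.54, with a range from -0.76 for Egfl7, followed by Ehd3 at -0.72, to -0.29, and a mean level of 11.46 in wild type and 10.92 in cKO. Podocyte markers were lower in 9 of 9 cases, led by Nphs1 at -0.63 and Synpo at -0.57. Their median was -0.42 and their mean levels were 11.04 and 10.63. Mesangial and pericyte markers were lower in 8 of 8 cases, led by Gata3 at -0.79 and Ptn at -0.75. Their median was -0.43 and their mean levels were 10.45 and 10.01. Smooth muscle markers were near equal, with a median of -0.04, mean levels of 9.69 and 9.68, and the widest differences at 0.34 for Tagln and -0.28 for Smtn. The guidance genes outside the endothelial list were lower in 24 of 37 cases, and their median was -0.19.

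Markers of other cells were mostly higher in the cKO pool. Over all 9 macrophage markers, with no floor, 9 were higher and the median was 1.16. The 7 above the floor had mean levels of 7.91 and 9.12 and included Lyz2 at 2.13 and Emr1, the F4/80 gene now named Adgre1, at 1.49. Emr1 and Ctss passed the floor in the cKO pool alone, at wild type levels of 6.62 and 7.46, so they could only count as higher and the size of their differences is uncertain. Collecting duct markers were higher in 6 of 7 cases, led by Atp6v0d2 at 1.21 and Atp6v1g3 at 1.11. Their median was 0.79, with Aqp3 at 0.18 and Aqp2, the exception, at -0.18. Thick limb and distal tubule markers were higher in 5 of 6 cases, led by Pvalb at 0.94 and Trpm6 at 0.77. Their median was 0.54, with Umod at 0.12 and Slc12a1, the exception, at -0.09. Proximal tubule markers were higher in 7 of 7, led by Ggt1 at 0.54 and Slc22a6 at 0.52, and their median was 0.32. Inflammation and tubular injury markers were higher in 6 of 7 cases, but 4 of these, Lcn2, Havcr1, Timp1 and Ccl2, were above the floor in the cKO pool alone. Lcn2 read 6.15 and 9.19 and Havcr1 read 6.45 and 8.84, so how far apart these pools were is uncertain for both. Of the 3 markers above the floor on both arrays 2 were higher, Spp1 by 0.49 and Vcam1 by 0.22, and Icam1 differed by -0.14. The part of these cell types in the values of the guidance genes was not tested.

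**Figure D4:**
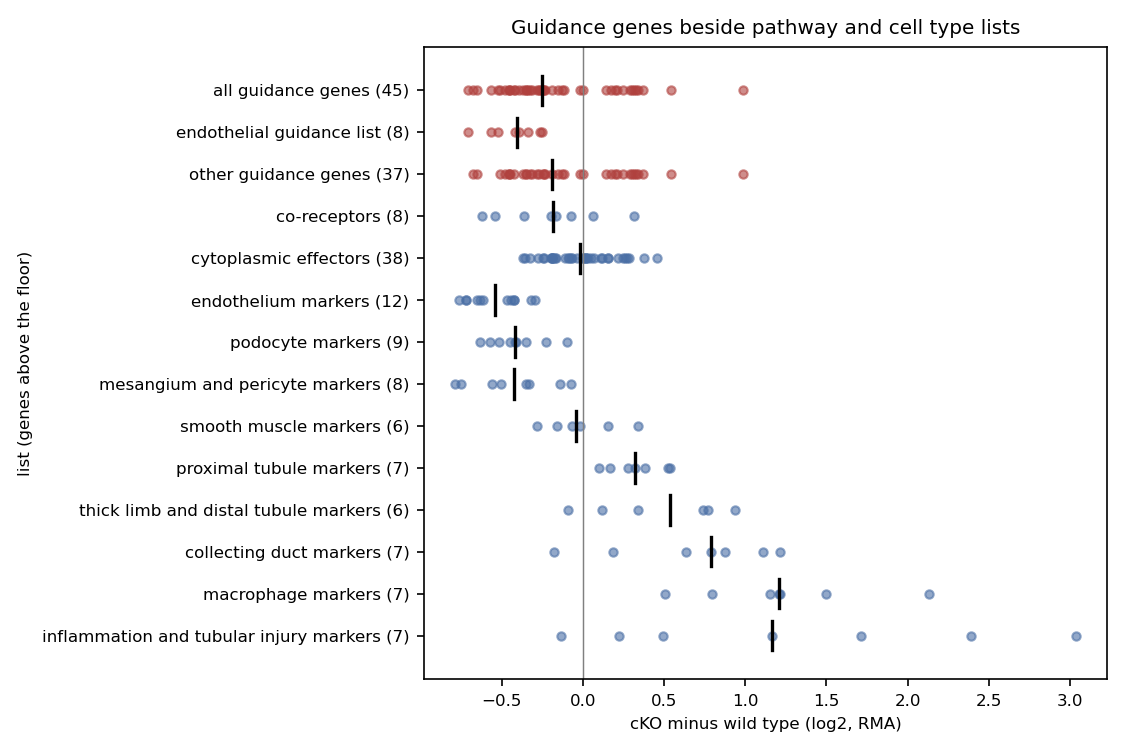
Difference (log2 RMA, RBP-J cKO minus wild type, horizontal axis) of each gene above the floor in the guidance families (red) and in the pathway and cell type marker lists (blue), with a black bar at each median and the number of genes in brackets. The endothelial guidance list, picked with earlier results of these data known, has a median of -0.41. This lies between the other guidance genes at -0.19 and the endothelial markers at -0.54. The podocyte markers at -0.42 and mesangial and pericyte markers at -0.43 lie closest to that list. Of the macrophage markers 2, and of the inflammation and tubular injury markers 4, were above the floor in the cKO pool alone.

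The authors' second processing of the same arrays gave like values. Of the 45 members above the floor 44 had the same sign by RMA and by dChip, the exception being Sema3b at -0.0017 and 0.02, and the median by dChip was -0.28. With dChip 31 were lower, where 45.7% of all genes were. At least 1.5-fold lower by dChip were Robo4 and Robo1, 2 of the 45, where 1.45% of all genes were, and Sema3c alone was at least 1.5-fold higher, where 4.13% were. The authors' bounds lay on one side of equality for 43 of the 45, 31 lower and 12 higher, the exceptions being Sema3b and Epha1. The same count over all genes was not made, so 43 of 45 does not set the members apart. No source used here gives the confidence level of these bounds, and with 1 array in each group they cannot cover variation between animals. Of 71 probe sets that match the rule 0 carried the mark of the authors' comparison filter. The mark is rare, on 326 of all 35512 probe sets with dChip values. Its absence from these 71 therefore does not set the members apart from other genes.

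Promoters of the guidance genes held the core motif of RBP-J about as often as promoters in general. RefSeq promoter windows matched 58 of the 67 genes. The letters TGGGAA on either strand were in a window of 15 of the 58, or 25.9%, against 28.3% of 27025 genes in the table. Among members above the floor, 9 of 27 that were lower in cKO held it, or 33.3%, and 3 of 12 that were higher, or 25%. The longer GTGGGAA, which contains the core, was in 3 of the 58, or 5.17%, against 7.25% of all. These were Epha7 and Ntn4, lower in cKO, and Plxnb2, higher, so the motif occurred on both sides. Their windows are shown with the longer motif in capitals, as GTGGGAA or as TTCCCAC where it lies on the other strand. It began at -93 for Epha7, 37 for Ntn4 and -91 for Plxnb2, counted from 0 at the annotated start.
Epha7 promoter, chr4:28812881-28813180, + strand: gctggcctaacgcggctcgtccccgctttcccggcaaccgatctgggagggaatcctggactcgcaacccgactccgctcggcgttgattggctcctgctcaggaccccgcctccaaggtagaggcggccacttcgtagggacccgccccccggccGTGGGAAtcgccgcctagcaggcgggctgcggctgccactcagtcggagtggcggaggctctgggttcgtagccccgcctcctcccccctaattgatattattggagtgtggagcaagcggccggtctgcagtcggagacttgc
Ntn4 promoter, chr10:93640799-93641098, + strand: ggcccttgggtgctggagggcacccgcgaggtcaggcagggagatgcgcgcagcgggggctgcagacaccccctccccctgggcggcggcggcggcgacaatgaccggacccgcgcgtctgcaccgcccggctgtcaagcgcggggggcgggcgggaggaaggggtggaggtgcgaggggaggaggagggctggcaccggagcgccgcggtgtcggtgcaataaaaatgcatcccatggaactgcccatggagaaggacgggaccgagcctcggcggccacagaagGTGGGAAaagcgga
Plxnb2 promoter, chr15:89180739-89181038, - strand: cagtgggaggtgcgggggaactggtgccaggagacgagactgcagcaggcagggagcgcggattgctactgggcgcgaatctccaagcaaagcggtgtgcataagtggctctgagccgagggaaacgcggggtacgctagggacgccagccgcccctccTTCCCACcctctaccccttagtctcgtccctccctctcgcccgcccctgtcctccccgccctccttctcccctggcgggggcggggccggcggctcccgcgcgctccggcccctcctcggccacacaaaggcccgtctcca
A match shows that these letters occur in the window and says nothing of binding.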

How the data were processed

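Gene expression of pooled arteriole RNA was measured on 1 array for each group. Per the submitters' processing notes the authors used RMA, R 2.15.0 and limma 3.12.1, with no role stated, and the deposited log2 values are taken here as RMA output. RMA equalises the arrays' distributions and hides a shift common to most genes. The other deposited table gives dChip intensity per the file headers, on a linear scale, and a fold score by the authors that is negative where cKO is lower, with bounds. Its version, the build and the annotation release are not stated in the sources used here.

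Symbols are those of the dChip table, taken before the first colon, over 24612 named probe sets in both tables. Where a gene had more than 1 probe set, as 1287 did, the one with the highest mean was used. The 67 members and all lists were chosen with earlier results of these data known. Genes named are members at least 1.5-fold apart, the 3 with the largest absolute difference in each subfamily, the 6 with the highest mean, the endothelial guidance list, Rbpj, Ren1, 6 of the co-receptor and effector list and 2 of each marker list. A further marker list is not reported here. Other members, other genes of the reported lists and Xist are given outside this rule after their values were seen. Calculations were tested on simulated data and used Python 3.11.15, pandas 2.3.3, NumPy 2.4.6, statsmodels 0.14.6 and matplotlib 3.10.9.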

Additional observations from a re-analysis of the deposited data

How the results depend on the processing

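No paired analysis was possible because each group has 1 array. Tried in turn were dropping the floor, raising it to the 75th percentile (8.97), dChip values, the mean over probe sets, centring on the median or on a loess trend, a 2-fold threshold and, for each list, leaving out its member farthest from 0. A median or difference counted as moved when it changed by more than 0.10, the standard deviation across genes of the RMA minus dChip difference, and a count when it changed by more than 1.5 times. Without a floor the medians were -0.13 for all guidance genes, -0.0217 for class 3 semaphorins, -0.13 for plexins, -0.16 for EphA receptors, -0.0342 for EphB receptors and 0.0249 for netrins and Unc5 receptors, the last with the opposite sign. The stricter floor left 29 members, of which 0 were at least 1.5-fold higher and 3 were higher by at least 0.25, against 1 and 8, and medians of -0.48 for class 3 semaphorins, -0.52 for Ephb4, the EphB receptor left, and -0.25 for Efna1, the A ephrin left. With dChip the EphA median was -0.44. With the mean over probe sets the EphB median was -0.51. At 2-fold 0 members were higher and 0 lower. Without its farthest member the median was -0.34 for class 3 semaphorins, -0.25 for A ephrins, -0.0377 for Slits and Robo receptors without Robo4 and -0.0008 for EphB receptors without Ephb4. Of 216 alternative values for single genes 213 kept their sign, and the 3 that did not were those of Rbpj. In size 17 of the 216 moved. Among them were Nphs1, from -0.63 to -0.44 with the mean over probe sets, and Synpo, from -0.57 to -0.45 with dChip. Most of the single genes were named for having the largest differences in their lists. Centring on the median shifted each value by only 0.02, and genes with 1 probe set could not change with the mean over probe sets. The kept signs were therefore largely fixed in advance. Of the 109 alternative values for counts and medians 90 stayed within these limits. The number of arrays limits the precision.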
